A study of Mus musculus with 32 samples.

Results

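Apoe, Apoc1, Tmprss2 and Eid1 are 4 of the 19970 gene names counted in 32 mouse skin libraries. They were chosen on measured values, because their change with passaging differed between organoid media with and without an inhibitor of TGF-beta signalling. The values of the members in unpassaged and early organoids are therefore a description and carry no test. Tests of the members are given between kinds of tissue and between late organoids and tissue. The late organoids were grown in a medium that was part of that choice, so the direction of their tests may follow from it.

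The organoids were grown from skin cells of mice of the strain Bl/6, which also gave the tissue libraries, and were sampled in bulk. Expression was measured by CEL-seq2, which counts the 3′ ends of polyadenylated transcripts, and levels are given as CPM, the share of a library's counts scaled to parts in 1e+06. There were 5 unpassaged libraries, each from another medium, which held forskolin and the TGF-beta inhibitor, the inhibitor alone, forskolin and Fgf1, forskolin and Fgf10, or forskolin alone. Early organoids (passages 7 to 12, up to 3 months) gave 4 libraries with forskolin and the inhibitor, 2 with the inhibitor alone, 2 with forskolin and Fgf1 and 4 with forskolin and Fgf10. Late organoids (passages 23 to 30, up to 6 months) gave 6 libraries, all with forskolin and Fgf1. All organoids were taken 7 days into culture or after a passage. Tissue gave 3 libraries of epidermal cells gated as positive for Itga6 and Sca1, 3 of anagen hair follicles, and 3 of follicles of mixed anagen and telogen phase. Forskolin raises cyclic AMP. Every FGF medium lacked the inhibitor and every inhibitor medium lacked an FGF, so removal of the inhibitor and addition of the growth factor cannot be told apart.

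ApoE is a secreted apolipoprotein that coats lipoprotein particles and binds receptors of the LDL receptor family, and keratinocytes of the epidermis are known to make it. ApoC1 is a small apolipoprotein that moves between lipoprotein particles, and its gene lies beside Apoe. Tmprss2 encodes a serine protease anchored in the cell membrane, known as an androgen-responsive gene in the prostate and for cutting viral entry proteins. Eid1 encodes an inhibitor of differentiation that binds the retinoblastoma protein and the acetyltransferase p300. TGF-beta restrains the division of keratinocytes, and inhibitors of its receptor are a common component of epithelial culture media.

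Apoe (ENSMUSG00000002985.16) spans chr7:19696109-19699188 on the minus strand of GRCm38, and Apoc1 (ENSMUSG00000040564.14) spans chr7:19689481-19692660 on the same strand, with 3448 bases between them. Tmprss2 (ENSMUSG00000000385.8) spans chr16:97564682-97611195 on the minus strand. Eid1 (ENSMUSG00000091337.3) spans chr2:125673095-125674785 on the plus strand, inside Shc4, which is read from the opposite strand. Whether counting used the strand is not given in the sources used here, but Shc4 itself had 0 to 3 counts per library. All 4 genes are protein-coding and were listed in nearly all files, with Tmprss2 not listed in late replicates 3 and 6.

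Promoter sequence in RefSeq's table for GRCm38.p6 matched 2 of the 4 members, Apoe and Tmprss2, which also had the largest differences between inhibitor and FGF media in early organoids. The 250 bases before the transcription start are shown in the reading direction of each gene. Apoe's lie at chr7:19699189-19699438 and Tmprss2's at chr16:97611196-97611445, both on the minus strand. Capitals mark CAGAC or its reverse complement, a core of the sites bound by Smads, the transcription factors of the TGF-beta pathway.
Apoe: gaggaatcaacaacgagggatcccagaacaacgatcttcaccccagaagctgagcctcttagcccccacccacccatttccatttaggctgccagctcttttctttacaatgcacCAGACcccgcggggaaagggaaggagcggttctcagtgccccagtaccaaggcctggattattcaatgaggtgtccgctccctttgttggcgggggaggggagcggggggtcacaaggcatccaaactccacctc
Tmprss2: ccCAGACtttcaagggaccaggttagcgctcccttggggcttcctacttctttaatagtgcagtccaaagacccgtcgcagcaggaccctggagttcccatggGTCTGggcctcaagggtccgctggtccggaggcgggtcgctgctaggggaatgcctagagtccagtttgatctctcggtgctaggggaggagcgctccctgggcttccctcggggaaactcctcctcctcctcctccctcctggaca
CAGAC stood 1 time in the Apoe stretch and 2 times in the Tmprss2 stretch, counting both strands. It was found in 42.2% of the 32851 promoter stretches of this length in the same table. CAGAC was added to the search after the 2 sequences had been read and the 6 motifs searched first had given no match, so its presence here says nothing about these genes. Those 6, without a match on either strand, were the palindromic Smad box GTCTAGAC (in 0.167% of promoters), the AP-1 site TGACTCA (4.46%), the cyclic AMP response element TGACGTCA (1.55%), the GC box GGGCGG (32.7%), the TATA box TATAAA (12.4%) and the E box CANNTG (66.2%). GC content was 57.2% for Apoe and 61.6% for Tmprss2. A match describes letters and not a bound site, and a missing match says only that these letters are not in this window.

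Total counts ran between 412582 and 3351435 per library (median 1505354), and 10511 to 15648 genes were detected. By the genes they list, the files form 11 sets, within which the lists are identical, and such a set is named a source table below. The first held all 5 unpassaged libraries with replicate 1 of early Fgf1 and early Fgf10 organoids, and the second held the other 10 early libraries, among them all 6 with the inhibitor. Each tissue group and the late organoids had tables of their own, so the kind of tissue and its table cannot be told apart. Whether replicates came from different mice or cultures is not in the labels, and the spread behind each p-value may therefore be technical. In such bulk libraries, fewer cells of a type and less RNA per cell cannot be told apart.

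**Figure D1:**
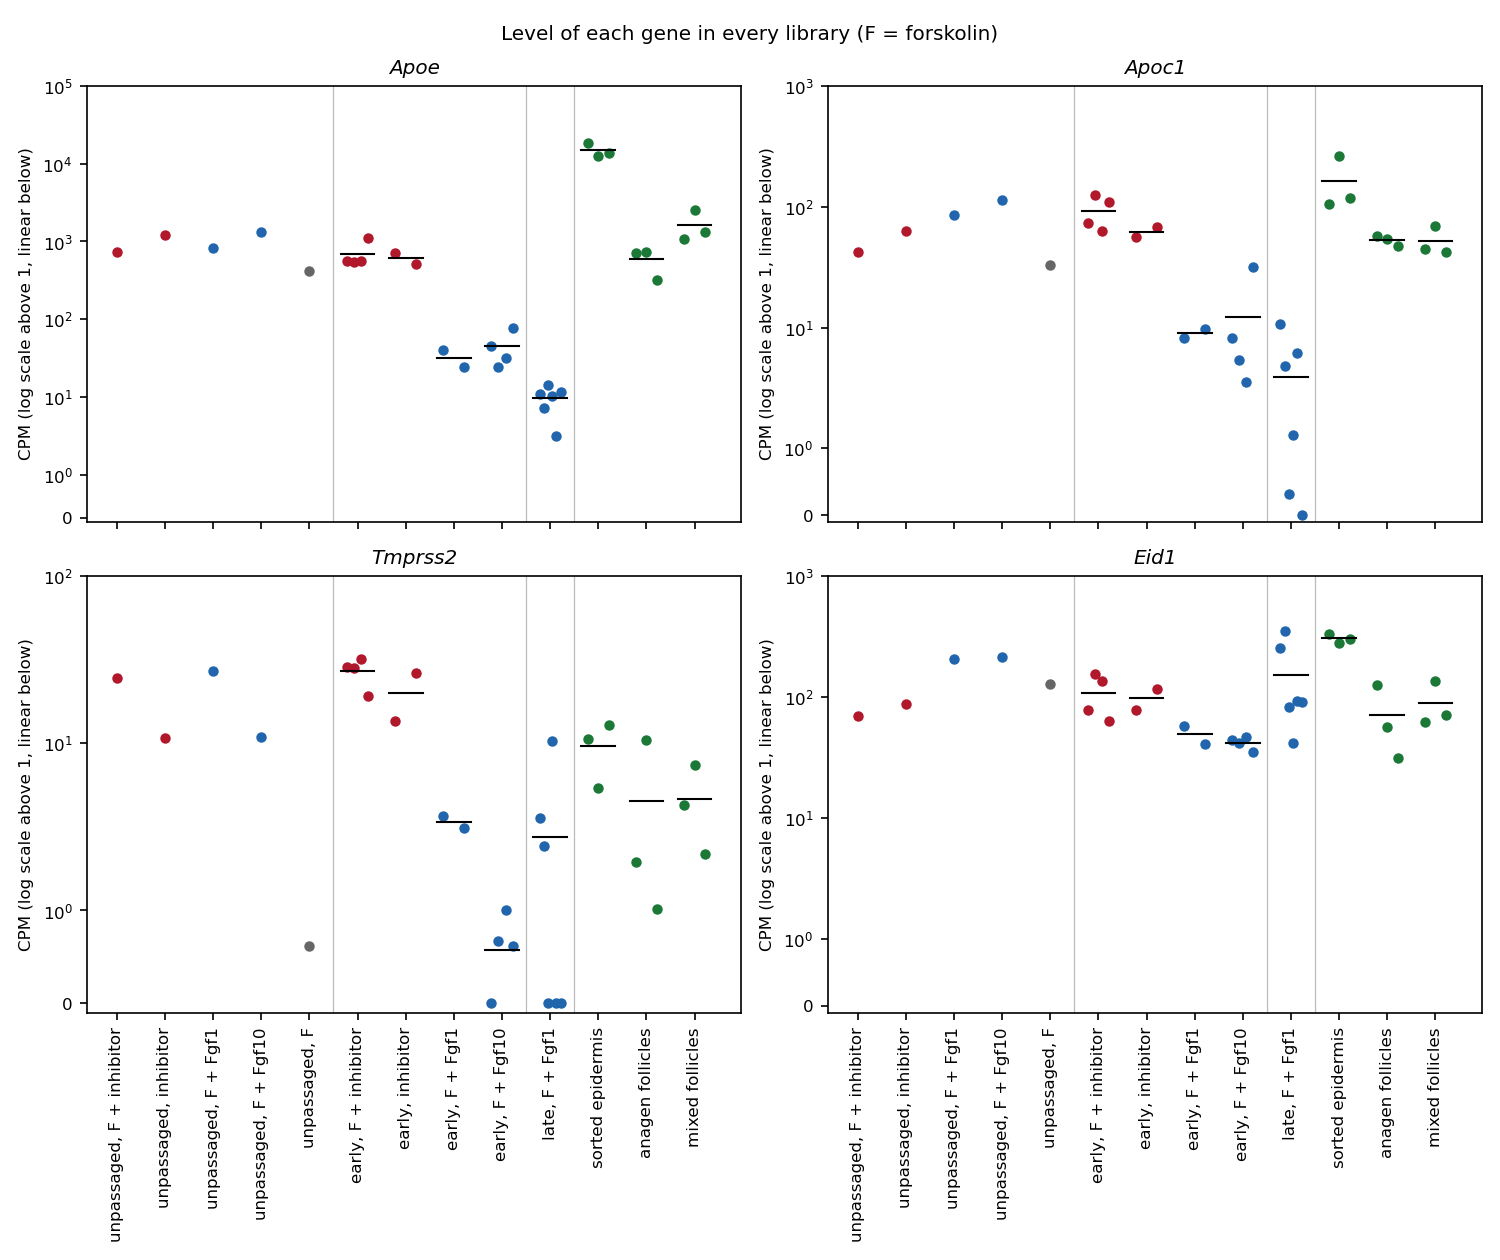
CPM of each gene in every library, on an axis that is logarithmic above 1 and linear below, with groups along the horizontal axis, points for libraries and a line at the mean of groups with more than 1 library. Red marks media with inhibitor, blue FGF media, grey forskolin alone and green tissue; early Apoe lies between 518 and 1107 CPM with the inhibitor and between 24.2 and 77.4 CPM with an FGF.

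Apoe stood higher in early organoids of inhibitor media than of FGF media, which may follow from its choice. With forskolin and the inhibitor, its level was 559.9, 544, 562 and 1107 CPM, and with the inhibitor alone 719 and 518 CPM. With forskolin and Fgf1 it was 39.8 and 24.2 CPM, and with forskolin and Fgf10 45.2, 24.2, 31.6 and 77.4 CPM. The 6 inhibitor libraries averaged 668 ± 226 CPM (SD) and the 6 FGF libraries 40.4 ± 19.98 CPM, and the fitted log2 fold change was 4.08. Within the second source table alone, the 4 FGF libraries averaged 39.3 ± 25.6 CPM against the same 6 inhibitor libraries.

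Before passaging, Apoe lay between 419 and 1311 CPM in all media, a range that holds every early inhibitor library and no early FGF library. The unpassaged library had 736 CPM with forskolin and the inhibitor, 1223 CPM with the inhibitor alone, 824 CPM with forskolin and Fgf1, 1311 CPM with forskolin and Fgf10, and 419 CPM with forskolin alone. The exact 95% binomial intervals of these single libraries were 699.9 to 774, 1178 to 1270.0, 770 to 882, 1251 to 1372 and 388 to 452 CPM, and they cover counting error only. In FGF media all 6 early libraries lay below the unpassaged library of their own medium, and the fitted log2 change with passaging was -4.71. In inhibitor media 5 of 6 lay below it and 1 above it, and the fitted change was -0.35. The difference between the media was 4.36 on the log2 scale.

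Apoc1 had the same order of media at lower counts. Early organoids had 73.6, 124.5, 62.5 and 109.7 CPM with forskolin and the inhibitor and 56.3 and 68.0 CPM with the inhibitor alone. Early organoids with forskolin and Fgf1 had 8.21 and 9.76 CPM, and those with forskolin and Fgf10 had 8.21, 5.37, 3.51 and 31.9 CPM. Fgf10 replicate 4, the highest FGF library for Apoc1, was also the highest for Apoe. The fitted log2 fold change of inhibitor over FGF media was 2.82.

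Unpassaged Apoc1 was 42.4 CPM with forskolin and the inhibitor, 62.4 CPM with the inhibitor alone, 85.5 CPM with forskolin and Fgf1, 113 CPM with forskolin and Fgf10 and 33.0 CPM with forskolin alone. In inhibitor media 5 of 6 early libraries lay above their unpassaged library (fitted log2 change 0.75), and in FGF media 6 of 6 lay below it (-3.14). The difference was 3.89.

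Tmprss2 had the fewest counts of the 4 over all libraries, with 0 to 75 counts per library. Early organoids had 28.6, 28.4, 32.1 and 19.1 CPM with forskolin and the inhibitor and 13.6 and 26.5 CPM with the inhibitor alone. With forskolin and Fgf1 it had 3.70 and 3.12 CPM, from 9 and 8 counts. With forskolin and Fgf10 it had 0, 0.671, 1.00 and 0.614 CPM, from at most 2 counts, and the library with no count allows up to 1.76 CPM (3 counts). The fitted log2 fold change of inhibitor over FGF media was 3.90.

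Unpassaged Tmprss2 was 24.6 CPM with forskolin and the inhibitor, 10.8 CPM with the inhibitor alone, 27.2 CPM with forskolin and Fgf1 and 10.9 CPM with forskolin and Fgf10. With forskolin alone it had 1 count, or 0.612 CPM with an exact 95% interval of 0.0155 to 3.41 CPM, below the interval of every other unpassaged library. In inhibitor media 5 of 6 early libraries lay above their unpassaged library (fitted log2 change 0.60), and in FGF media 6 of 6 lay below it (-3.32), a difference of 3.92.

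Eid1 was also higher in inhibitor than in FGF media in early organoids, with a smaller difference, and its unpassaged libraries already differed by medium. Early organoids had 77.7, 155.6, 136.5 and 64.1 CPM with forskolin and the inhibitor and 79.0 and 117.7 CPM with the inhibitor alone, against 57.9 and 40.6 CPM with forskolin and Fgf1 and 44.6, 41.6, 46.6 and 35.01 CPM with forskolin and Fgf10. The lowest inhibitor library stood just above the highest FGF library, and the fitted log2 fold change was 1.14. Unpassaged, it had 70.3 and 88.0 CPM in the 2 inhibitor media, against 209 CPM with Fgf1 and 214 CPM with Fgf10, and 130 CPM with forskolin alone. Before passaging the FGF media thus stood above the inhibitor media, and in early organoids below them. The fitted change with passaging was 0.58 in inhibitor media and -2.15 in FGF media, a difference of 2.73.

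**Figure D2:**
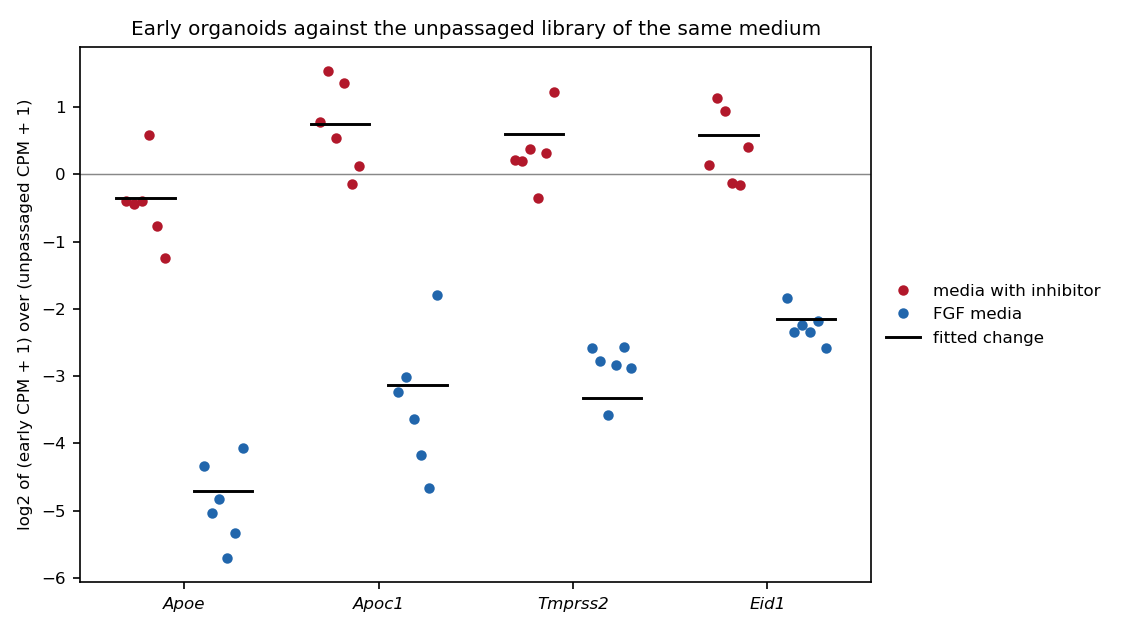
The log2 ratio of CPM + 1 in each early library to that in the unpassaged library of its medium, by gene, with inhibitor media in red, FGF media in blue, points for early libraries and black lines for the fitted change. All 24 blue points lie below 0, and the fitted changes in FGF media run between -4.71 for Apoe and -2.15 for Eid1. The genes were chosen on this contrast, and the blue points share the same 2 unpassaged libraries, so their number is not support.

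Over all 9984 genes of the passaging fit, 0.481% were called in inhibitor media (0.24% higher and 0.24% lower), 4.29% in FGF media (1.43% higher and 2.85% lower) and 0.03% in the difference between them (0.03% higher and 0% lower). These shares place the members against the rest of the table and were not read as support, since the members were chosen on this contrast. All early inhibitor libraries came from another source table than the unpassaged ones, so passaging under the inhibitor and table cannot be told apart. In FGF media the first table held both stages. There Apoe had 39.8 CPM in the early Fgf1 library, against 824 CPM in the unpassaged one, and 45.2 CPM in the early Fgf10 library, against 1311 CPM in the unpassaged one.

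Other genes of the culture signals were described in the same fits. Of the TGF-beta pathway and response list, 5 of 22 measured genes were lower and none was higher in early inhibitor than in early FGF media, where 1.34% of all genes were called, 0.484% higher and 0.857% lower (edgeR quasi-likelihood test, Benjamini-Hochberg adjustment). The list's median log2 fold change was -1.23, against -0.01 for all genes. Tgfb3, a ligand of the pathway, averaged 0.174 CPM with the inhibitor and 9.65 CPM with an FGF, with a log2 fold change of -5.90 (SE 1.19, adjusted p = 0.0168). Thbs1, the thrombospondin that activates latent TGF-beta, averaged 1.198 CPM with the inhibitor and 13.5 CPM with an FGF (-3.45, SE 0.76, adjusted p = 0.0261). With passaging in FGF media, 3 of 20 genes of this list were lower, among them the matrix protein gene Tgfbi at -1.53 (SE 0.28, adjusted p = 0.00484). Of 8 genes of FGF receptor feedback, 3 were lower with passaging in FGF media, among them the signalling inhibitor Spry2 at -2.76 (SE 0.45, adjusted p = 0.00238) and the ERK phosphatase Dusp6 at -1.97 (SE 0.35, adjusted p = 0.00438). In inhibitor media no gene of either list passed with passaging, which is not a test of a difference between the media. Spry1, the third feedback gene called in FGF media (-1.70, SE 0.41), changed by -1.90 (SE 0.46) in inhibitor media. There Spry2 changed by -1.03 (SE 0.56), Dusp6 by -0.73 (SE 0.41) and Tgfbi by 0.39 (SE 0.35).

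No gene around Apoe and Apoc1 on chromosome 7 passed the test between media. Of 14 listed neighbours, 10 passed the filter on low counts, and none was called between inhibitor and FGF media in early organoids or in any passaging contrast. Their log2 fold changes for inhibitor over FGF media ran between -0.53 (SE 0.44) for Gemin7 and 0.73 (SE 0.44) for Bcam, an adhesion receptor of basal cells, both named as the ends of the range. Tomm40, a subunit of the mitochondrial import pore whose gene starts 2124 bases beyond Apoe, averaged 167 CPM with the inhibitor and 141 CPM with an FGF (log2 fold change 0.23, SE 0.28, adjusted p = 0.925). The apolipoprotein genes of the same cluster, Apoc2 and Apoc4, averaged 0.103 and 0 CPM with the inhibitor, against 0.0977 and 0 CPM with an FGF.

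**Figure D3:**
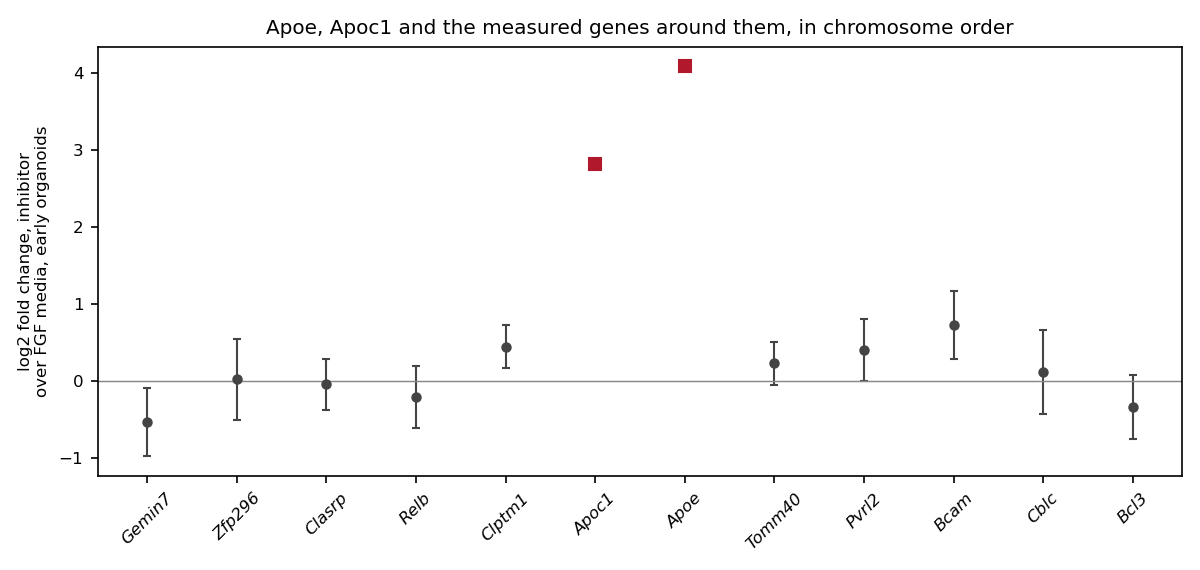
Fitted log2 fold change of early inhibitor over early FGF media for Apoe and Apoc1 (red squares, chosen on related values and shown with no error) and for the 10 measured neighbours (points with SE bars), in chromosome order. The neighbours lie between -0.53 and 0.73, below Apoc1 at 2.82 and Apoe at 4.08.

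Apolipoproteins act through receptors and lipid transporters, and most genes of these lists were not called between early media. No lipoprotein receptor of 11 measured passed, nor any of 17 genes of cholesterol synthesis, and 1 of 12 genes of the LXR and cholesterol efflux list was lower with the inhibitor, Lpcat3, a phospholipid-remodelling enzyme (log2 fold change -0.95, SE 0.18, adjusted p = 0.00973). With passaging in FGF media, Vldlr, a receptor for ApoE-bearing particles, was lower (6.82 CPM in early and 31.8 CPM in unpassaged organoids, log2 fold change -2.06, SE 0.44, adjusted p = 0.0140), as was Abca1, the transporter that loads cholesterol onto apolipoproteins (10.4 and 34.2 CPM, -1.73, SE 0.44, adjusted p = 0.0353). Of 17 membrane proteases, inhibitors and substrates measured beside Tmprss2, none passed between early media. With passaging in FGF media 2 of these rose, the relatives Tmprss11a (18.6 CPM in early and 0.486 CPM in unpassaged organoids, adjusted p = 0.00346) and Tmprss11d (26.3 and 2.30 CPM, adjusted p = 0.0410). In inhibitor media the same 2 genes also stood higher in early organoids, without passing the test. There Tmprss11a averaged 7.78 CPM in early and 0.722 CPM in unpassaged organoids (log2 fold change 3.25, SE 0.84, against 5.36 in FGF media). Tmprss11d averaged 11.4 and 1.17 CPM (3.38, SE 0.97, against 3.47 in FGF media). None of 9 measured genes of the Eid family and its partners passed in these contrasts.

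Differences within the inhibitor media and within the FGF media are a description too, since the members were chosen on these early libraries. For forskolin with the inhibitor over the inhibitor alone (4 and 2 libraries, all in 1 source table), Apoe averaged 693 ± 276 CPM with forskolin and 619 ± 142 CPM without, and its libraries overlapped. Apoc1 averaged 92.6 and 62.1 CPM, Tmprss2 27.1 and 20.1 CPM, and Eid1 108 and 98.4 CPM, with forskolin given first. For Fgf1 over Fgf10 (2 and 4 libraries), Apoe averaged 32.02 ± 11.1 CPM with Fgf1 and 44.6 ± 23.5 CPM with Fgf10, and Apoc1 8.99 ± 1.09 and 12.3 ± 13.3 CPM. Tmprss2 averaged 3.41 ± 0.41 CPM with Fgf1 and 0.572 ± 0.418 CPM with Fgf10, from 17 and 4 counts in all. These counts are below the filter's minimum, which Tmprss2 passed in this fit through the inhibitor libraries. Over all 9919 genes, edgeR called 0 (0%, in both directions) for forskolin, with 621 at an unadjusted p under 0.05 and 24 called by DESeq2. For Fgf1 over Fgf10 it called 0 (0%), with 331 at an unadjusted p under 0.05 and 15 called by DESeq2.

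Apoe was at its lowest in late organoids. In forskolin and Fgf1 the level was 824 CPM unpassaged, 39.8 and 24.2 CPM in early organoids, and 10.8, 7.27, 14.4, 10.4, 3.09 and 11.4 CPM in late organoids, from 2 to 45 counts per library. The highest late library lay below the lowest early one. Apoc1 was 85.5 CPM unpassaged, 8.21 and 9.76 CPM early, and between 0 and 10.8 CPM (median 3.07) late, where the groups overlapped. The late library without an Apoc1 count allows up to 2.86 CPM (3 counts). Tmprss2 was 27.2 CPM unpassaged, 3.70 and 3.12 CPM early, and 3.59, 2.42, 0, 10.4, 0 and 0 CPM late, with limits of 0.959, 4.64 and 2.86 CPM for the libraries at 0. Eid1 did not continue downwards. It was 209 CPM unpassaged, 57.9 and 40.6 CPM early, and 257, 351, 82.5, 41.6, 92.8 and 91.4 CPM late. The fitted log2 changes of late over early were -1.79 for Apoe, -1.78 for Apoc1, -0.69 for Tmprss2 and 1.46 for Eid1, given without a test because the early libraries were used in the choice.

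Late replicates 1 and 2, which hold the highest Eid1 levels, come from the same source table. Without late replicate 4, which alone held 8 of the 11 late Tmprss2 counts, the late over early change of Tmprss2 was -2.40.

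The tissue libraries place these levels. Apoe in sorted epidermis was 18626, 12732 and 13567 CPM, or 1.86%, 1.27% and 1.36% of all counts (exact 95% intervals 1.82 to 1.90%, 1.25 to 1.30% and 1.33 to 1.39%). It ranked 1st, 2nd and 4th by count among all genes of those libraries. Anagen follicles had 717, 726 and 317 CPM, and mixed follicles had 1087, 2529 and 1320 CPM. Tests between the 3 groups follow, beside the share of all genes that passed.

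Sorted epidermis was tested against both follicle groups with edgeR over 10843 genes. Against anagen follicles, Apoe was higher by a log2 fold change of 4.23 (SE 0.53, adjusted p = 1.78e-05) and Eid1 by 1.72 (SE 0.57, adjusted p = 0.0258), so 2 of 4 members passed, where 34.2% of all genes did (14.8% higher and 19.4% lower). Against mixed follicles Apoe alone of the 4 passed, at 2.09 (SE 0.48, adjusted p = 0.00327), where 30.3% of all genes did (11.9% higher and 18.5% lower). Anagen follicles against mixed follicles gave -2.14 for Apoe (SE 0.48, adjusted p = 0.00931), again 1 of 4 members, where 6.63% of all genes passed (1.21% higher and 5.42% lower). That call was lost with library totals alone as scaling (-1.49, adjusted p = 0.0890). The folds of epidermis over follicles rest on TMM scaling and are smaller than the ratios of the CPM given above. With other scalings the share of higher calls for epidermis moved between 43.4% and 61.9% against anagen follicles and between 39.1% and 77.7% against mixed follicles. Apoe stayed higher in epidermis and past the test under all of them.

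The Eid1 call lay close to the threshold. Eid1 had 334, 281 and 305 CPM in epidermis, against 125, 56.5 and 31.3 CPM in anagen follicles and 62.3, 136.7 and 71.5 CPM in mixed follicles. Without anagen replicate 2 or 3 or any single epidermis library, the adjusted p of the edgeR test against anagen follicles was 0.0504 to 0.0938. The log2 fold change stayed at 1.55 to 1.77. Apoc1 had 106, 261 and 118 CPM in epidermis, 56.9, 53.9 and 47.7 CPM in anagen and 44.4, 69.8 and 41.9 CPM in mixed follicles. The fitted differences of Apoc1 between epidermis and follicles did not pass the edgeR test (adjusted p = 0.190 against anagen and 0.514 against mixed follicles). Tmprss2 had 10.6, 5.41 and 12.9 CPM in epidermis, from 4 to 7 counts, against 1.94, 10.5 and 1.03 CPM in anagen and 4.30, 7.46 and 2.17 CPM in mixed follicles, which overlapped.

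**Figure D4:**
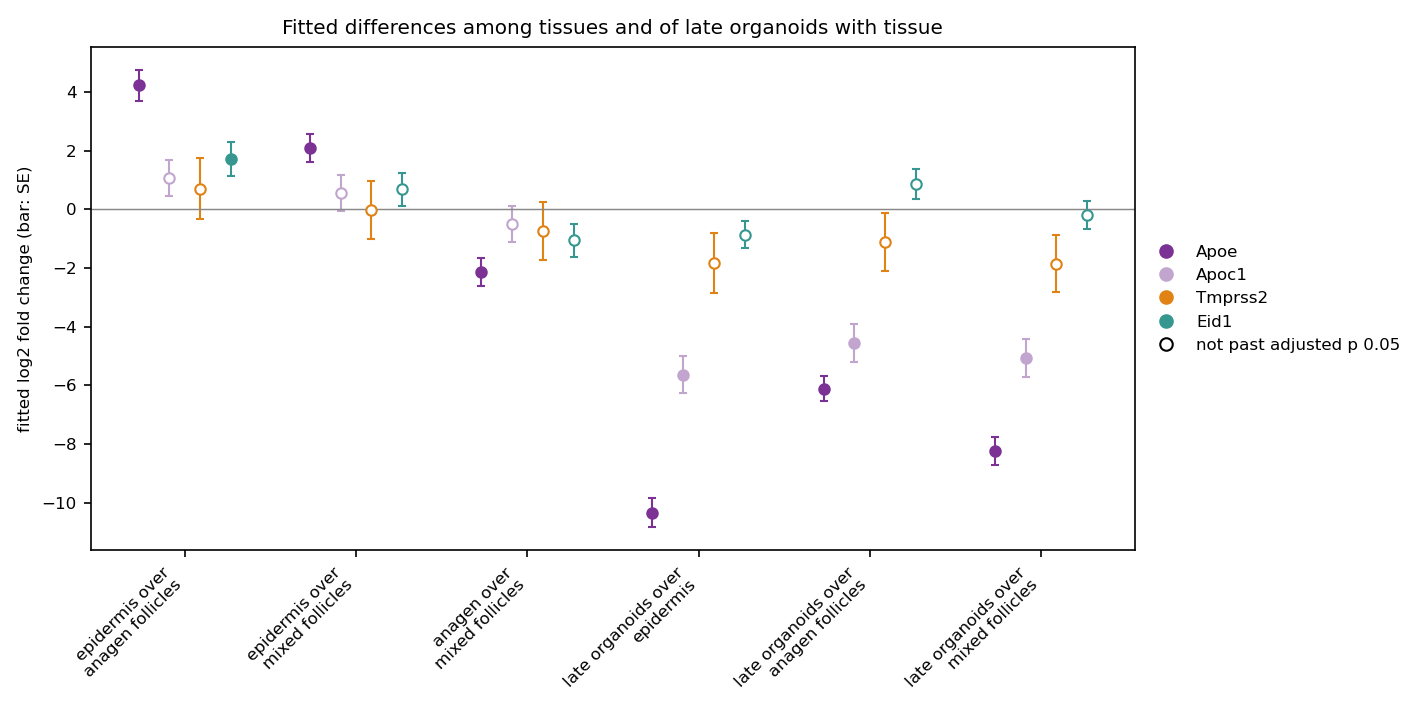
Fitted log2 fold changes of the 4 genes, with bars for the SE, in the 6 comparisons among tissues and of late organoids with tissue, the first-named group over the second. Filled points passed an adjusted p of 0.05; Apoe in late organoids over epidermis is the lowest at -10.34.

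Both apolipoprotein genes were lower in late organoids than in every kind of tissue. Against sorted epidermis, Apoe averaged 9.56 ± 3.90 CPM in late organoids and 14975 ± 3189 CPM in epidermis (log2 fold change -10.34, SE 0.50, adjusted p = 6.95e-10), and Apoc1 3.91 ± 4.202 and 162 ± 86.0 CPM (-5.63, SE 0.64, adjusted p = 1.22e-05). These 2 of 4 members passed, where 21.8% of all genes did (12.2% higher and 9.53% lower). Against anagen follicles, Apoe differed by -6.11 (SE 0.44, adjusted p = 4.25e-08) and Apoc1 by -4.57 (SE 0.65, adjusted p = 2.77e-05), again 2 of 4, where 45.8% of all genes passed (21.2% higher and 24.6% lower). Against mixed follicles Apoe differed by -8.24 (SE 0.47, adjusted p = 1.48e-09) and Apoc1 by -5.07 (SE 0.65, adjusted p = 1.07e-05), 2 of 4 members, where 39.7% of all genes passed (17.2% higher and 22.5% lower). These 3 comparisons share the late libraries. The late libraries were not used in the choice of the members. Their medium, forskolin and Fgf1, was used in it at earlier passages, so a low late level may follow from that choice.

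Tmprss2 averaged 2.74 ± 4.05 CPM in late organoids and 9.67 ± 3.86 CPM in epidermis (log2 fold change -1.82, SE 1.01, adjusted p = 0.215). Against anagen and mixed follicles its differences were -1.11 (SE 0.98, adjusted p = 0.371) and -1.84 (SE 0.96, adjusted p = 0.135). Without late replicate 4 it passed against epidermis, anagen follicles and mixed follicles (adjusted p = 0.0184, 0.0282 and 0.00733). Eid1 averaged 153 ± 122 CPM in late organoids and 307 ± 26.5 CPM in epidermis (-0.86, SE 0.47, adjusted p = 0.207), and passed without late replicate 2 (adjusted p = 0.0409). Against anagen and mixed follicles its differences were 0.86 (SE 0.50, adjusted p = 0.170) and -0.18 (SE 0.48, adjusted p = 0.792).

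Late organoids were higher than epidermis for 12.2% of all genes and lower for 9.53%, and the counts of the lists that follow are read against these shares. Of 17 genes of cholesterol synthesis 15 were higher and none lower, with a median log2 fold change of 3.24 over the list, against 0.04 over all genes. Sqle, squalene epoxidase, averaged 100.3 CPM in late organoids and 7.28 CPM in epidermis (log2 fold change 3.98, SE 0.48, adjusted p = 2.17e-05), and Mvd, an enzyme of the mevalonate pathway, averaged 74.2 CPM in late organoids with no count in epidermis. Of 11 lipoprotein receptor genes 6 were higher and none lower. Lrp8, an ApoE receptor, averaged 7.76 CPM in late organoids and had no count in epidermis (adjusted p = 0.0160). In the epidermis libraries 3 counts correspond to 4.06 to 6.39 CPM. Folds of genes below that level in epidermis, here and in the paragraphs that follow, rest on few or no counts there.

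The LXR and efflux list was mixed, with 5 of 13 genes lower and 1 higher. Abca1 averaged 14.1 CPM in late organoids and 168 CPM in epidermis (-3.61, SE 0.55, adjusted p = 0.000193), and Abcg1, another cholesterol transporter, 2.52 and 25.5 CPM (-3.16, SE 0.80, adjusted p = 0.00879). Nr1h2, which encodes LXR-beta, was the higher one at 164 and 87.4 CPM (1.15, SE 0.32, adjusted p = 0.0149). Among the 10 measured neighbours of Apoe 2 were higher and none lower, a share near that of all genes, namely Bcl3, a regulator of NF-kappaB (66.9 CPM in late organoids and 5.97 CPM in epidermis, adjusted p = 0.00415), and Tomm40 (81.4 and 31.0 CPM, adjusted p = 0.00406). Of 17 protease-list genes 6 were higher and none lower, led by Tmprss11g and Tmprss11a at 68.0 and 65.6 CPM in late organoids and no count in epidermis.

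TGF-beta genes had 8 higher and 1 lower of 24. Pmepa1, a feedback inhibitor of the pathway, averaged 266 CPM in late organoids and 8.18 CPM in epidermis (5.15, SE 0.67, adjusted p = 4.56e-05), and Tgfbi was lower at 65.0 and 383 CPM (-2.35, SE 0.44, adjusted p = 0.00122). Of 8 FGF feedback genes 2 were higher and 1 lower, and of 10 Eid family genes and partners 1 was lower, again near the share of all genes, Ep300, which encodes p300 (22.9 and 51.2 CPM, -0.98, SE 0.29, adjusted p = 0.0213).

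Between epidermis and anagen follicles, where 14.8% of all genes were higher in epidermis and 19.4% lower, 12 of 17 cholesterol synthesis genes were lower in epidermis and none higher. Insig1, the sterol-sensing retention protein, averaged 4.12 CPM in epidermis and 241 CPM in anagen follicles (log2 fold change -6.36, SE 0.66, adjusted p = 5.1e-06). Of 11 lipoprotein receptors 5 were lower and 1 higher. The higher one was Sdc1, a heparan sulphate proteoglycan, at 543 CPM in epidermis and 49.3 CPM in anagen follicles (3.11, SE 0.49, adjusted p = 0.000141). Scarb1, the HDL receptor, was lower at 0.451 and 24.8 CPM (-5.79, SE 0.81, adjusted p = 5e-05), and its epidermis level is below 3 counts per library.

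In the same comparison, where 34.2% of all genes were called, 4 of 10 neighbours of Apoe were higher and 1 lower, with Bcam at 444 CPM in epidermis and 47.9 CPM in anagen follicles (2.96, SE 0.69, adjusted p = 0.00303) and Tomm40 lower at 31.0 and 68.1 CPM (-1.58, SE 0.40, adjusted p = 0.00583). On the protease list 2 of 17 genes were higher and 6 lower. Tmprss4, a relative of Tmprss2, averaged 142 CPM in epidermis and 0.657 CPM in anagen follicles (7.02, SE 1.32, adjusted p = 0.000614). Tmprss11e averaged 0.451 and 72.6 CPM (-7.40, SE 1.59, adjusted p = 0.0017), with an epidermis level again below 3 counts per library. Among the Eid family and partners 4 of 10 were lower and none higher, so the share called was near that of all genes, led by the acetyltransferase genes Kat2b (16.6 CPM in epidermis and 67.7 CPM in anagen follicles, -2.58, SE 0.50, adjusted p = 0.000739) and Crebbp (26.0 and 91.7 CPM, -2.32, SE 0.43, adjusted p = 0.00054).

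Markers of other cells moved with some of these results, and their part in them was not tested. Apoe is also known as a macrophage product. The 10 macrophage markers summed to 18.5 to 32.5 CPM in epidermis, 7.70 to 21.7 CPM in anagen and 3.58 to 11.04 CPM in mixed follicles. In epidermis Cd68, Csf1r, Emr1, Ptprc and Tyrobp were detected, and C1qa, C1qb, C1qc, Lyz2 and Mrc1 were at 0. In early organoids the macrophage markers summed to 4.54 to 29.1 CPM with the inhibitor and 6.45 to 22.8 CPM with an FGF. These ranges overlap, with C1qa, C1qc and Lyz2 at 0 on both sides. The 5 Langerhans and class II markers summed to 363 to 675 CPM in epidermis, against 3.29 to 13.1 CPM in anagen and 64.5 to 165 CPM in mixed follicles. In late organoids they summed to 12.4 to 194 CPM, of which the class II gene H2-Ab1 alone had 1.92 to 118.8 CPM. The Langerhans cell gene Cd207 had no count in late organoids or anagen follicles. The 8 basal keratinocyte markers, all detected, summed to 32024 to 34426 CPM in epidermis, 370 to 2511 CPM in anagen and 7440 to 13937 CPM in mixed follicles. The 7 hair matrix and shaft markers summed to 16.6 to 24.3 CPM in epidermis, 40497 to 52819 CPM in anagen and 9435 to 22167 CPM in mixed follicles. Between early media, basal markers summed to 22186 to 27658 CPM with the inhibitor and 30708 to 45133 CPM with an FGF. The 7 fibroblast markers summed to 7.27 to 14.99 CPM with the inhibitor and 26.2 to 540.02 CPM with an FGF. Of these, Lum had no count on either side and Dcn none with an FGF. With Fgf1, at 276 to 540 CPM, Col1a1 and Col1a2 had no count either, and the sums came from Col3a1, Pdgfra and Sparc. Suprabasal markers (6 genes, all detected) summed to 2850 to 36962 CPM with the inhibitor and 6892 to 27071 CPM with an FGF. In late organoids basal markers summed to 15910 to 31670 CPM and suprabasal markers to 97.1 to 21879 CPM, against 2967 to 3099 CPM in epidermis. Fibroblast markers summed there to 204 to 1116 CPM in late organoids, with no count of Lum. Between the follicle groups, fibroblast markers summed to 34.9 to 511 CPM in anagen and 890.4 to 1922 CPM in mixed follicles, the 5 red blood cell markers to 2.05 to 5.92 CPM and 55.2 to 179.9 CPM, the 7 sebaceous gland markers to 203 to 342 CPM and 75.8 to 149 CPM, and suprabasal markers to 323 to 857 CPM and 2140 to 2907 CPM, with anagen given first and no overlap.

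The balance of the neighbouring pair differed between groups. For every 100 Apoe counts there were 7.83 to 22.9 Apoc1 counts in early inhibitor libraries and 11.1 to 41.3 in early FGF libraries. In unpassaged libraries there were 5.10 to 10.4. In tissue there were 0.571 to 2.05 in epidermis, 7.43 to 15.1 in anagen and 2.76 to 4.08 in mixed follicles, so the epidermis range lay below those of both follicle groups and of unpassaged and early organoids. Late libraries ranged between 0 and 200, on 2 to 45 Apoe counts and at most 6 Apoc1 counts, too few to read.

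**Figure D5:**
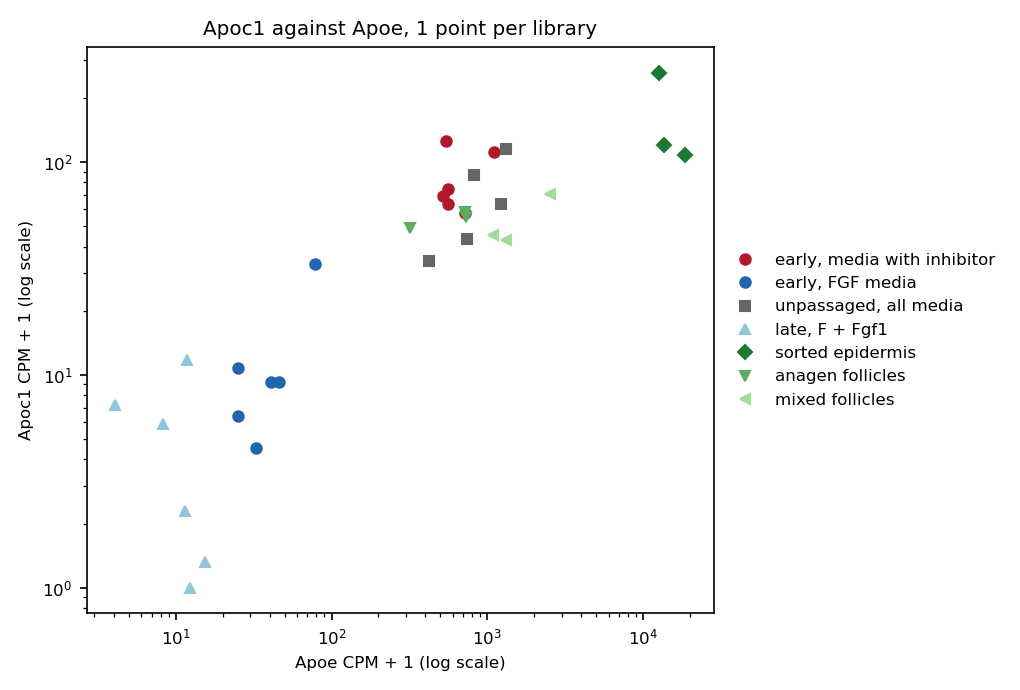
Apoc1 against Apoe, as CPM + 1 on log axes, with 1 point per library. Early FGF and late libraries lie at the lower left, with at most 77.4 CPM of Apoe, and the 3 epidermis libraries lie apart at 12732 CPM of Apoe or more and 106 to 261 CPM of Apoc1.

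Likeness between genes was described by Pearson's r of log2(CPM + 1) over the 32 libraries, which share batches and depth, among genes with a mean of at least 10 CPM. The unpassaged and early organoids among these libraries were used to choose the members. Likeness among the members, and a split by medium of genes like them, may follow from that choice and were not read as support. Apoe was most like Lefty1 (r = 0.89), which encodes a secreted antagonist of Nodal signalling from the TGF-beta superfamily, then Apoc1 (0.89), Crip1 and Crip2 (0.85 each), which encode LIM-domain proteins, and Adh1 (0.83), an alcohol dehydrogenase that also acts on retinol. Over the 23 organoid libraries alone Apoc1 came first (0.89) and Lefty1 stayed among the first 5 (0.88), whereas the other places changed. By Spearman's rho over the 32 libraries Adh1 came first (0.90) with Lefty1 in place 4 (0.82). Lefty1 averaged 8.25 CPM with forskolin and the inhibitor and 17.5 CPM with the inhibitor alone in early organoids, against 0.976 CPM with Fgf1 and 0.419 CPM with Fgf10. It averaged 0.300 CPM in late organoids, 60.5 CPM in epidermis, 2.38 CPM in anagen follicles and 15.9 CPM in mixed follicles.

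Apoc1 was most like Apoe (0.89), Crip1 (0.84), Rangrf (0.83), Lefty1 (0.80) and Plbd1 (0.79). Tmprss2 had weaker matches in Hdgfrp3 (0.71), Rangrf (0.67), Mpc1 (0.66), Apoc1 (0.66) and Id3 (0.65). Id3, an inhibitor of basic helix-loop-helix factors, averaged 215 CPM with forskolin and the inhibitor and 127 CPM with the inhibitor alone in early organoids, against 39.3 CPM with Fgf1 and 39.9 CPM with Fgf10. Eid1 stood apart from the others, with r of 0.39 to Apoe, 0.37 to Apoc1 and 0.33 to Tmprss2. Its nearest genes were Acyp1 (0.81), H2afv (0.80), Irx1 (0.79), H2-Ab1 (0.79) and Tnfaip8 (0.77), of which H2-Ab1 is 1 of the class II genes on the marker list above. By Spearman's rho the first gene was Crip1 for Apoc1 (0.84), Apoc1 for Tmprss2 (0.74) and Tnfaip8 for Eid1 (0.81).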

How the data were processed

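Counts of CEL-seq2 reads per gene were taken as the authors deposited them, as whole numbers in 1 file per library. The submitters' processing notes name the aligner BWA (0.6.2-r126) and the build mm10, and whether molecular identifiers were collapsed is not given in the sources used here. In most of the deposited files the count column has a bare number as its header, and all values in them are whole numbers too, so they were used as counts. Spike-in rows were removed, a gene not listed was counted as 0, and CPM was computed from the remaining total. The labels gave the groups. The 4 members, the gene lists and the tests were chosen with earlier results of these data known.

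Tests used edgeR 4.0.16 in R 4.3.3, with TMM scaling, filterByExpr (minimum count 10, minimum total 15), quasi-likelihood F tests and Benjamini-Hochberg adjustment at 0.05 over all genes of a fit. Tissue and late organoids were fitted with early Fgf1 organoids (10843 genes), the 18 passaged organoid libraries together (9919 genes), and early with unpassaged libraries with medium, passaging and passaging by inhibitor as terms (9984 genes). The fits were checked on simulated counts with known changes. Alternatives were 3 other scalings, no filter, DESeq2 1.42.0, the compared groups alone, the replicate number as a block, leaving out each library, and leaving out the early libraries of the unpassaged source table. Per list, up to 2 genes in each direction with the largest fold past the test were named, and Tomm40, Gemin7, Bcam, Apoc2 and Apoc4 between early media were named beside that rule. Some genes that the rule picks are not reported here. Intervals are exact binomial ones at 95%, and the limit for a count of 0 is 3 counts.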

Additional observations from a re-analysis of the deposited data

Results flagged for a closer look

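For 12 pairs of a member and a group of 4 or more libraries, the highest and the lowest library were compared with the rest by Dixon's criterion. Chance marks about 1 pair in 20 under it, and 3 were marked. The pairs share libraries, and those in early organoids hold values that chose the members. The number marked is therefore a description and was not compared with that share. Apoe in early organoids with forskolin and the inhibitor was 1107 CPM in replicate 4, against 544 to 562 CPM in the other 3 libraries. Apoc1 in early organoids with forskolin and Fgf10 was 31.9 CPM in replicate 4, against 3.51 to 8.21 CPM in the other 3. Tmprss2 in late organoids was 10.4 CPM in replicate 4, from 8 counts, against 3.59 CPM or less in the other 5.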

How the results depend on the processing

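Of 760 values of the 4 members under an alternative, 720 kept their direction and side of the threshold, 23 changed sign, 10 came past the threshold, 6 lost it and 1 moved, and the cause was not tested. These values include contrasts of the early libraries on which the members were chosen, where a kept direction may follow from that choice. Many are refits that share most of their libraries, so the tally was not read as support. Of 177 counts of genes called 39 moved by over 1.5 times, as did 14 of 468 list counts. Values are log2 fold changes unless counts are named. For Tmprss2 in epidermis over mixed follicles, near 0, the sign changed with RLE (0.0090), upper quartile (0.27) and library-total scaling (0.96), no filter (0.0021), DESeq2 (0.055) and the replicate block (0.15). For Eid1 in late organoids over mixed follicles it changed with upper quartile (0.048) and library-total scaling (0.74) and the replicate block (0.22). Library totals alone brought Apoc1 (1.64) and Eid1 (1.76) in epidermis over mixed follicles past the threshold, lost Apoe in anagen over mixed follicles (-1.49) and gave 0.016 for Apoc1 there. The median of all genes moved under library totals to 0.28 (epidermis over anagen follicles), 0.92 (epidermis over mixed follicles) and 0.81 (late organoids over mixed follicles), and the share of higher calls in the last was 43.4% with TMM, 52.2% with upper quartile and 74.5% with library totals. For late organoids over anagen follicles that share was 46.3% with TMM and 56.6% with library totals, and for anagen over mixed follicles 18.2% and 42.7%. Fitting the compared groups alone brought Apoc1 in epidermis over anagen follicles (1.12) and Eid1 in epidermis over mixed follicles (0.69) past the threshold.

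Replicate numbers were not used to pair the samples, since the correlations of same-numbered libraries were not all above 0.1 in any comparison with 3 numbers. They were 0.219, 0.0753 and 0.0667 for late organoids over anagen follicles, and 0.357 and 0.0290 for Fgf1 over Fgf10. So few correlations cannot exclude a pairing. With the replicate block, Eid1 in late organoids over anagen follicles was 1.32 and Tmprss2 over mixed follicles -2.82, both past the threshold. The block gave -0.30 for Eid1 with Fgf1 over Fgf10 and -0.19 for Apoe with forskolin, and 33 genes for forskolin, 8 for passaging with inhibitor and 157 for passaging in FGF media.

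Counts of genes called were, with the compared groups alone, 1376 for late organoids over epidermis, 43 for Fgf1 over Fgf10, 5 for forskolin and 336 for inhibitor over FGF media. Without a filter they were 3 for Fgf1 over Fgf10, 19 for forskolin, 671 and 1016 for passaging in inhibitor and FGF media and 103 for their difference. DESeq2 called 15 for Fgf1 over Fgf10, 24 for forskolin, 209 for inhibitor over FGF media, 247 for passaging with inhibitor and 19 for the difference. Without the early libraries of the unpassaged source table, passaging counts were 194 with inhibitor and 714 in FGF media.

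With each library left out in turn, Eid1 in epidermis over anagen follicles was 1.55 to 2.13. Tmprss2 was -0.30 to 0.32 in epidermis over mixed follicles, and in late organoids -3.53 to -1.29 over epidermis, -2.82 to 0.23 over anagen follicles, -3.56 to -1.31 over mixed follicles and -2.40 to -0.15 over early ones. Eid1 in late organoids was -1.24 to -0.67 over epidermis and -0.56 to 0.013 over mixed follicles. With Fgf1 over Fgf10, Apoc1 was -0.85 to 0.59 and Eid1 -0.10 to 0.36. With forskolin, Apoe was -0.22 to 0.40, Tmprss2 -0.00418 to 0.93 and Eid1 -0.17 to 0.42. Genes called were 398 to 662 for anagen over mixed follicles, 1296 to 2549 for late organoids over epidermis, 0 to 6 for Fgf1 over Fgf10, 0 to 16 for forskolin, 15 to 65 and 260 to 469 for passaging in inhibitor and FGF media, 2 to 5 for their difference and 34 to 122 for inhibitor over FGF media. Tmprss2 had at most 75 counts in a library and late Apoc1 at most 6.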
